A study of Mus musculus with 14 samples.

Results

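The comparison described here is the diet effect averaged over genotypes in kidney cortex of mice: for each gene, the difference between vitamin A deficient (VAD) diet and regular chow was taken within wild-type mice and within TRACK transgenic mice, and the mean of both differences was tested. All 14 libraries of the series enter, 7 from mice on the deficient diet and 7 from mice on chow, and 12251 of 22007 gene IDs had enough expression to be tested. The groups are WT-VAD (wild type, deficient diet, n = 3), WT (wild type, chow, n = 3), TRACK-VAD (transgenic, deficient diet, n = 4) and TRACK (transgenic, chow, n = 4). All mice are of the C57BL/6 background, were put on their diet 2 weeks after weaning and were killed 24 weeks later; no other age is given. Both TRACK groups carry the transgene GGT-HIF1A_M3, which encodes a constitutively active form of the hypoxia-inducible factor HIF1A. As background, the gamma-glutamyl transferase promoter that GGT stands for is active in proximal tubule cells, so the transgene is a model of HIF1A activity in those cells and not in the whole kidney. Per the labels, RNA came from the cortices of 4 mice of each cohort and replicates are biological; each library was therefore counted as 1 mouse.

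Vitamin A is taken up as retinol or its esters, carried in blood by retinol-binding protein, and oxidised in cells first to retinaldehyde and then to retinoic acid. Retinoic acid binds nuclear receptors that switch on target genes, among them enzymes that destroy retinoic acid itself, so that the pathway limits its own signal. The kidney both reclaims filtered retinol in the proximal tubule and has retinoic acid signalling in its collecting ducts.

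Levels are deposited FPKM, which allow for transcript length and for the size of the library, divided here by a scale factor per library. Differences are on log2(scaled FPKM + 1), VAD minus chow, which understates the fold of genes near 1 FPKM. A gene is called where limma's p, adjusted by the method of Benjamini and Hochberg, is 0.05 or less. Read depth is unknown, and relative depth ran from 0.778 to 1.09 in deficient-diet libraries and from 0.921 to 1.29 in chow libraries. TRACK-VAD libraries 1 and 2 stood apart: correlations within TRACK-VAD ran from 0.957 to 0.991, against 0.988 to 0.992 within TRACK, 0.989 to 0.991 within WT-VAD and 0.991 to 0.992 within WT. Havcr1, a marker of injured proximal tubule, had 142, 301, 18.1 and 46.0 FPKM in TRACK-VAD libraries 1 to 4 against 50.5, 42.7, 16.9 and 30.3 FPKM in TRACK. TRACK 4 carried fat markers, whose sum reached 475 FPKM there and at most 5.89 FPKM in WT. All 8 proximal tubule markers were found, which fits the labelled tissue. Their sum was 2565 to 3182 FPKM in WT-VAD against 2914 to 4116 FPKM in WT, and 636 to 1846 FPKM in TRACK-VAD against 1328 to 1713 FPKM in TRACK. The labels give lane number 5 to all WT and TRACK libraries and to TRACK-VAD 1 to 3, and lane number 6 to TRACK-VAD 4 and all WT-VAD libraries. In wild-type mice diet and lane number can therefore not be told apart, and for TRACK mice values within lane 5 are given beside the results. The labels also state 4 samples per lane, so a lane number may cover more than 1 flow cell.

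Limma called 112 of 12251 genes for the averaged diet effect, which is 0.914% of genes tested. On the deficient diet 39 (0.318%) were higher and 73 (0.596%) lower. At an unadjusted p of 0.05, 1486 genes (12.1%) passed. The median difference of called genes was 0.50 in absolute size, and 8 genes changed at least 2-fold on this scale, 3 up and 5 down. Of the 112 genes, 111 had the same sign in both genotypes, a share that the averaging itself favours. In 45 the diets did not overlap within either genotype, 13 higher and 32 lower; over all genes tested such values made up 1.02%, 0.408% higher and 0.612% lower. In TRACK mice alone 19 genes (0.155%) were called, and in wild-type mice alone 63 (0.514%). Of the 112, 9 were also called in TRACK by itself and 49 in wild type by itself, with Avpr1a and Cyp26b1 in both. The difference was smaller in TRACK than in wild type for 93 of the 112 genes. At an unadjusted p of 0.05 in limma, 49 of the 112 had an interaction of genotype and diet, beside 989 of all 12251. Across all 12251 genes the differences of the genotypes had a Pearson correlation of 0.112, and 0.213 without TRACK-VAD 1 and 2; genes of one library are not independent. In TRACK within lane 5, 110 of the 112 had the same sign. At an unadjusted p of 0.05, 80 of the 112 passed there, beside 2023 of all 12251 genes. Without TRACK-VAD 1 and 2, 270 genes (2.20%) were called, 95 of the 112 among them, and all 112 kept their sign. The libraries of both subsets also entered the call of the 112, which by itself favours such agreement. With lane number as a covariate, where the lane effect is estimated from TRACK-VAD libraries alone, 3 genes were called, Slc16a1, Cyp26b1 and Cpb2. Cpb2 was not among the 112 and was picked after its value was seen. Leaving out 1 library gave between 40 calls, without WT 1, and 167, without TRACK-VAD 2.

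**Figure D1:**
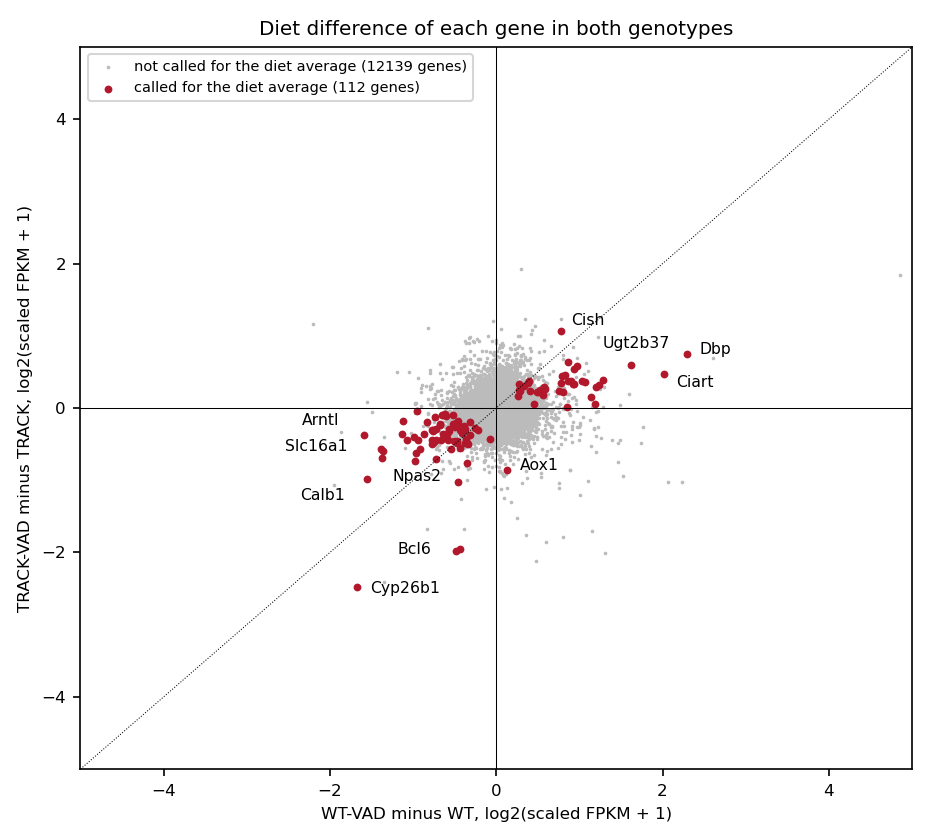
Each point is 1 of 12251 genes, with the WT-VAD minus WT difference on the horizontal axis and the TRACK-VAD minus TRACK difference on the vertical axis, both on log2(scaled FPKM + 1); the 112 called genes are red and the dotted line marks equal differences. Apart from Aox1, called genes lie at the lower left and the upper right, and 93 of them are nearer to 0 in TRACK than in wild type.

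Among retinoid genes, 2 of retinoic acid breakdown were called lower on the deficient diet, while genes of retinol transport and of retinoid reception were not called. Cyp26b1 (ENSMUSG00000063415, chromosome 6, 84571414 to 84593908 of GRCm38, as all gene coordinates here), which encodes a cytochrome P450 that oxidises retinoic acid and is itself induced by it, had the smallest p of all genes. It had 0.774, 0.402 and 1.35 FPKM in WT-VAD against 5.34, 3.79 and 5.202 FPKM in WT, and 0.599, 0.451, 1.53 and 0.428 FPKM in TRACK-VAD against 6.32, 9.63, 9.54 and 8.76 FPKM in TRACK. Every deficient-diet library lay below every chow library of either genotype, and chow levels were higher in TRACK than in wild type. The averaged difference was -2.07 ± 0.16 (SE; adjusted p = 5.69e-05), with a 95% interval of -2.41 to -1.74. On the log2(scaled FPKM + 1) scale this leaves 23.8% of the chow level. The difference was -2.48 in TRACK (-2.39 within lane 5) and -1.67 in wild type; with lane number as a covariate the average was -1.86 (adjusted p = 0.0384). Ugt2b34, of the UDP-glucuronosyltransferases, which couple lipophilic compounds such as retinoids to glucuronic acid, had 10.1, 9.14 and 7.96 FPKM in WT-VAD against 15.4, 15.2 and 17.99 FPKM in WT, and 12.8, 14.8, 11.8 and 12.9 FPKM in TRACK-VAD against 19.5, 16.4, 19.0 and 20.5 FPKM in TRACK. Both pairs were separate, and the averaged difference was -0.63 ± 0.07 (SE; adjusted p = 0.0017). Its near-identical Ugt2b relatives may share reads with it. The breakdown list held 9 genes, of which 5 were tested. These 2 were called, all 5 were below 0, and their median was -0.29 beside -0.0011 for all genes. Like all gene lists here, the breakdown list was written with earlier results of these data known. Its share of calls is therefore not independent support. Ugt2b37, a relative of Ugt2b34 that rose (1.11, adjusted p = 0.0138), is not in this list. Whether either enzyme acts on retinoic acid here was not tested. Cyp26a1 stayed at or under 0.325 FPKM in every library and Cyp26c1 at or under 0.0295 FPKM, so neither was tested. Without any single library both calls held, with adjusted p up to 0.000533 for Cyp26b1 and 0.0104 for Ugt2b34.

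Of 27 tested genes of retinoid synthesis and storage, 1 was called (median -0.01), and this gene, Aox1, had differences of opposite sign in the genotypes. Aox1 encodes aldehyde oxidase, which can turn retinaldehyde into retinoic acid. Its levels were 0.115, 0.179 and 0.193 FPKM in WT-VAD against 0.0418, 0.0700 and 0.0779 FPKM in WT, and 0.400, 0.298, 0.275 and 0.385 FPKM in TRACK-VAD against 1.41, 1.323, 1.498 and 1.46 FPKM in TRACK. In TRACK the deficient-diet libraries were the lower ones and in wild type the higher ones, with no overlap in either. The differences were -0.86 in TRACK and 0.13 in wild type, and their interaction, TRACK minus WT, was -0.98 ± 0.12 (SE), adjusted p = 0.0173, the one interaction called among 12251 genes (0.00816%). Aox1 reached 1 FPKM in the 4 TRACK libraries and in no other, so it passed the filter on low values (1 FPKM in 3 libraries) only through the group where it was high. With no filter the adjusted p of the interaction was 2.01e-05 and that of the average 0.000329. That fit holds 17879 genes, and the added ones enter the spread that limma expects at low levels. It is therefore no independent check of a gene at such levels. The interaction was not called with a pseudocount of 0.1 (adjusted p = 0.0793), with lane number as a covariate (0.638) or with the replicate block (0.127). It was also lost without any one of 8 libraries, which were WT 1 and 3, TRACK 1, 2 and 4, TRACK-VAD 3 and WT-VAD 2 and 3 (0.051 to 0.0987). The averaged value of -0.36 (adjusted p = 0.0136) has the sign of TRACK mice, and it was not called with a pseudocount of 0.1 (adjusted p = 0.183). Dhrs3, a retinaldehyde reductase known to be induced by retinoic acid, had 137, 119 and 122 FPKM in WT-VAD against 168, 159.8 and 171 FPKM in WT, and 95.1, 82.6, 112 and 95.6 FPKM in TRACK-VAD against 120.4, 106, 100.3 and 111 FPKM in TRACK. The TRACK groups overlapped, the wild-type groups were separate, and the average (-0.30, adjusted p = 0.0669) missed the threshold. Values of other genes that missed it were -0.42 for Aldh1a1 and 0.63 for Aldh1a2, both retinaldehyde dehydrogenases (adjusted p = 0.25 and 0.397), and -0.16 for Lrat, which esterifies retinol (adjusted p = 0.51).

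None of 10 tested genes of retinol transport and uptake was called (median 0.03; 2 were higher at an unadjusted p of 0.05). Rbp4, the plasma carrier of retinol, had 10.5, 9.15 and 10.1 FPKM in WT-VAD against 5.90, 3.31 and 1.83 FPKM in WT, and 10.7, 4.39, 10.8 and 19.2 FPKM in TRACK-VAD against 44.9, 47.7, 39.7 and 42.4 FPKM in TRACK. As with Aox1, the deficient-diet libraries were the lower ones in TRACK (-2.01) and the higher ones in wild type (1.31), so the average of -0.35 (adjusted p = 0.619) describes neither genotype; the interaction was -3.32 ± 0.49 (SE), adjusted p = 0.0747. Ttr, whose protein carries the retinol-binding protein in blood, averaged 105 ± 13.9 FPKM in WT-VAD and 53.0 ± 6.06 FPKM in WT, and 151 ± 99.9 FPKM in TRACK-VAD and 79.4 ± 19.4 FPKM in TRACK (difference 0.83, adjusted p = 0.246; 1.24, adjusted p = 0.00352, without TRACK-VAD 1 and 2, and -0.13 with lane number as a covariate). Stra6, the membrane receptor of retinol-binding protein, was at 0.33 (adjusted p = 0.721); the value changes sign without TRACK-VAD 1 and 2, to -0.071. Of 26 receptor and cofactor genes none was called, and Rarb, a retinoic acid receptor that its own ligand induces, was at -0.19 (adjusted p = 0.212), with 2.74, 2.36, 2.59 and 2.88 FPKM in TRACK-VAD against 3.14, 3.56, 3.39 and 2.98 FPKM in TRACK and an overlap in wild type. Among 31 tested genes known to respond to retinoic acid, 2 were called, Cyp26b1 lower and Bhlhe40 higher, with a list median of 0.02.

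**Figure D2:**
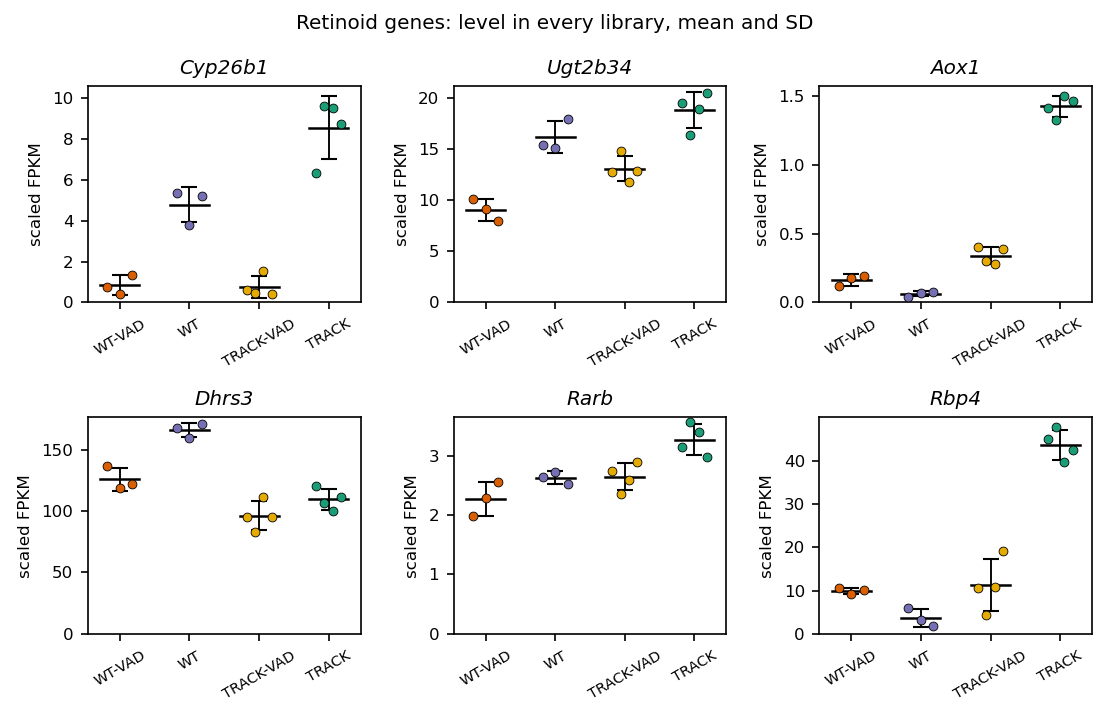
Scaled FPKM of 6 retinoid genes in every library (points), with the group mean and SD (lines), deficient diet left of chow within each genotype. Cyp26b1 and Ugt2b34 are lower on the deficient diet in both genotypes, whereas Aox1 and Rbp4 are higher in WT-VAD than in WT and lower in TRACK-VAD than in TRACK.

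Of 42 lists, the circadian clock list had the most calls. Of its 26 genes 5 were higher and 2 lower, 26.9% beside 0.914% of all genes, with a median of -0.07. All 42 lists were written with earlier results of these data known, so their shares of calls are not independent support. As background, the clock is a loop in which the activators BMAL1 (gene Arntl), CLOCK and NPAS2 bind E-box letters and switch on period, cryptochrome and Nr1d genes, whose proteins in turn repress the activators. DBP and TEF act on D-box letters. The activator genes were the lower ones. Npas2 (ENSMUSG00000026077, chromosome 1, 39193731 to 39363236) had 0.833, 0.441 and 0.477 FPKM in WT-VAD against 3.51, 3.53 and 2.31 FPKM in WT, and 1.315, 1.48, 1.22 and 1.34 FPKM in TRACK-VAD against 2.52, 2.31, 3.98 and 2.48 FPKM in TRACK. Diets were separate in both genotypes, and the averaged difference was -1.03 ± 0.11 (SE; adjusted p = 0.000902). Arntl had 1.70, 0.853 and 1.001 FPKM in WT-VAD against 7.06, 5.86 and 3.95 FPKM in WT, and 2.98, 3.13, 2.66 and 1.99 FPKM in TRACK-VAD against 3.84, 3.09, 5.201 and 3.16 FPKM in TRACK. Here the wild-type groups were separate and the TRACK groups touched, since TRACK-VAD 2 exceeded TRACK 2, and the averaged difference was -0.98 ± 0.14 (SE; adjusted p = 0.00608). Clock, the partner of both, was at -0.32 (adjusted p = 0.157). In an additive model of diet and genotype Arntl had an adjusted p of 0.0796.

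The called genes that were higher act in the repressing and output arms. Dbp (ENSMUSG00000059824, chromosome 7, 45705088 to 45710203) had 55.0, 68.1 and 62.2 FPKM in WT-VAD against 11.4, 8.44 and 16.8 FPKM in WT, and 40.3, 23.7, 41.9 and 46.4 FPKM in TRACK-VAD against 16.4, 24.8, 19.0 and 27.7 FPKM in TRACK. Wild-type diets were far apart, while TRACK-VAD 2 lay among the TRACK libraries; the averaged difference of 1.52 ± 0.17 (SE; adjusted p = 0.0017) was made of 0.75 in TRACK and 2.29 in wild type. Ciart, a repressor of the CLOCK and BMAL1 pair, had 2.96, 7.44 and 5.53 FPKM in WT-VAD against 0.494, 0.194 and 0.837 FPKM in WT, and 1.63, 2.00, 5.33 and 3.77 FPKM in TRACK-VAD against 1.004, 2.21, 1.71 and 2.76 FPKM in TRACK (averaged difference 1.24 ± 0.23 SE, adjusted p = 0.0266). Again the wild-type groups were separate and the TRACK groups overlapped. Per3, a period gene, had 1.74, 4.29 and 4.26 FPKM in WT-VAD against 1.34, 1.07 and 1.30 FPKM in WT, and 2.20, 2.16, 2.45 and 2.01 FPKM in TRACK-VAD against 1.58, 1.67, 1.64 and 1.28 FPKM in TRACK, separate in both genotypes (0.63 ± 0.13 SE, adjusted p = 0.0403). Nr1d2, which encodes the repressor REV-ERB beta, averaged 22.3 ± 2.69 FPKM in WT-VAD and 15.2 ± 1.74 FPKM in WT (SD, n = 3 each), and 17.7 ± 1.21 FPKM in TRACK-VAD and 14.7 ± 0.579 FPKM in TRACK (SD, n = 4 each), with no overlap in either (0.39 ± 0.07 SE, adjusted p = 0.0152). Bhlhe40, a repressor also induced by hypoxia and retinoic acid, averaged 46.6 ± 4.92 FPKM in WT-VAD and 20.8 ± 3.47 FPKM in WT, and 53.9 ± 14.4 FPKM in TRACK-VAD and 47.4 ± 3.13 FPKM in TRACK; its averaged difference of 0.64 (adjusted p = 0.0277) joined 0.15 in TRACK and 1.14 in wild type. Of the period genes, Per2 was at 0.33 (adjusted p = 0.69, and -0.15 with lane number as a covariate) and Per1 at -0.14 (adjusted p = 0.791), and Nr1d1 was at 0.18 (adjusted p = 0.508). Tef (0.54, adjusted p = 0.107), Cry2 (0.35, adjusted p = 0.107), Wee1 (0.38, adjusted p = 0.0991) and Usp2 (0.31, adjusted p = 0.54) were not called.

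Interactions of clock genes were not called: the difference in TRACK minus that in wild type was -1.54 for Dbp (adjusted p = 0.303), -1.55 for Ciart (adjusted p = 0.433), 1.22 for Arntl (adjusted p = 0.303) and -0.99 for Bhlhe40 (adjusted p = 0.353). Their unadjusted p in limma were 0.000673, 0.00469, 0.000692 and 0.00121, so a missed call does not show equal differences in both genotypes. The calls of Npas2, Dbp and Arntl held without any single library (adjusted p up to 0.00641, 0.0104 and 0.0253). Nr1d2 lost its call without WT 1 (adjusted p = 0.057), Ciart without WT 1 or 2, TRACK 3 or WT-VAD 2 or 3 (0.058 to 0.0762), and Bhlhe40 without any one of 8 libraries, that is all but WT 2, WT-VAD 2 and TRACK-VAD 1 to 4 (0.0501 to 0.0829). Per3 lost its call without any one of 11 libraries, that is all but WT-VAD 1, TRACK-VAD 2 and TRACK-VAD 4 (0.0534 to 0.11), and also without TRACK-VAD 1 and 2 together (adjusted p = 0.051). In TRACK within lane 5 the differences were -0.69 for Npas2 (unadjusted p = 0.000948), 0.65 for Dbp (0.02), 0.25 for Nr1d2 (0.0258), 0.36 for Per3 (0.077), 0.37 for Ciart (0.277), -0.28 for Arntl (0.166) and -0.00052 for Bhlhe40 (0.997). No source used here gives the hour at which mice were killed.

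**Figure D3:**
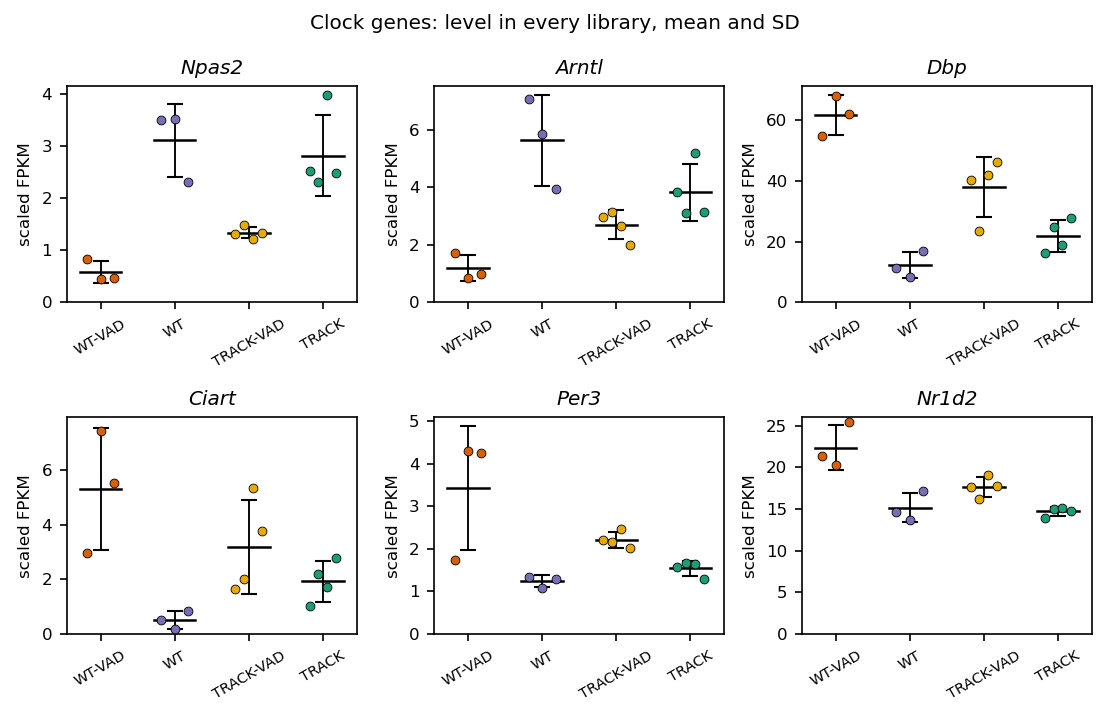
Scaled FPKM of 6 clock genes in every library (points), with the group mean and SD (lines), deficient diet left of chow within each genotype. Npas2 and Arntl are lower in WT-VAD than in WT, and Dbp, Ciart, Per3 and Nr1d2 higher; in TRACK mice Npas2, Per3 and Nr1d2 remain separate by diet.

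Promoter letters of the clock genes are shown because the loop runs through 2 short motifs. In 250 bases before each RefSeq gene start (GRCm38.p6), the E-box CACGTG, which reads the same on both strands, was present in 9 of 34 windows of the 22 clock genes that had one (26.5%), beside 1978 of 32851 windows in all (6.02%), and in 11 of 110 windows of called genes (10%). The D-box, searched as TTATGNAA on both strands, was in 2 of 34 clock windows (5.88%) beside 3.07% of all. Among called clock genes only Ciart had an E-box match and only Per3 a D-box match. The other clock genes with an E-box match, Per1, Cry1, Tef, Bhlhe41, Ppp1r3c, Sgk1 and Fkbp5, were not called. Ciart held 3 E-boxes and Per3 held 2 D-boxes in its window; both sequences run 5′ to 3′ on the minus strand, with the motif matches in capitals. Ciart is at chr3:95882229-95882478 and Per3 at chr4:151044666-151044915.
Ciart: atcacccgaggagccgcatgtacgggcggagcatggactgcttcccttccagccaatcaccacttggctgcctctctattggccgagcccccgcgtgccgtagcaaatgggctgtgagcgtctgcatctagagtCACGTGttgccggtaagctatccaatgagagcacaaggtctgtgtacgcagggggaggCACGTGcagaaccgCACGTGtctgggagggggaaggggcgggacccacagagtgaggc
Per3: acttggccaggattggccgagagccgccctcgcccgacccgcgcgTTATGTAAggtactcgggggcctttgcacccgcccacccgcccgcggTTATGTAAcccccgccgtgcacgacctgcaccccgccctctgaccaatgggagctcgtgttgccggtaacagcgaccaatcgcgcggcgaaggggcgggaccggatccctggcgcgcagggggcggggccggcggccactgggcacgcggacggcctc
A match is a description of letters in this window and says nothing about binding in these kidneys.

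Both calbindin genes of the distal nephron fell on the deficient diet, and a phosphate transporter rose. Of 24 tested genes for calcium, phosphate and vitamin D, 1 was called higher and 2 lower (12.5%, beside 0.914% of all genes; median -0.16). Calb1 (ENSMUSG00000028222, chromosome 4, 15881264 to 15908064) and S100g (ENSMUSG00000040808, chromosome X, 162961992 to 162964599) encode the calbindins, cytosolic calcium-binding proteins of the distal convoluted and connecting tubule that active vitamin D is known to induce. Calb1 had 59.5, 46.9 and 54.5 FPKM in WT-VAD against 160.4, 143 and 173 FPKM in WT, and 67.0, 32.8, 80.7 and 69.6 FPKM in TRACK-VAD against 149, 107, 120.1 and 101 FPKM in TRACK. All deficient-diet libraries were below all chow libraries, though in bulk tissue fewer cells of a type and less RNA per cell cannot be told apart. The averaged difference was -1.26 ± 0.17 (SE; adjusted p = 0.00485), or 41.6% of the chow level. S100g had 617, 706 and 700.4 FPKM in WT-VAD against 1859, 1588 and 1779.6 FPKM in WT, and 1563, 1332, 855 and 629 FPKM in TRACK-VAD against 1478, 1490.0, 1778 and 1506 FPKM in TRACK. Its wild-type groups were separate, but TRACK-VAD 1 lay within the TRACK range (-0.98 ± 0.17 SE, adjusted p = 0.0149). Without TRACK-VAD 1 and 2 the values were -1.10 for Calb1 and -1.23 for S100g, and in TRACK within lane 5 they were -1.05 (unadjusted p = 0.000822) and -0.36 (unadjusted p = 0.0498). S100g lost its call without WT 1 (adjusted p = 0.0556), and Calb1 kept it without any single library (up to 0.0231).

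Slc20a1, a sodium-dependent phosphate transporter, had 19.2, 24.3 and 24.0 FPKM in WT-VAD against 11.6, 10.7 and 11.4 FPKM in WT, and 51.5, 55.3, 32.0 and 41.4 FPKM in TRACK-VAD against 27.3, 35.5, 31.0 and 27.1 FPKM in TRACK. It was higher on the deficient diet in wild type without overlap, while TRACK-VAD 3 lay among TRACK libraries (0.74 ± 0.11 SE, adjusted p = 0.00996). The main phosphate transporters of the proximal tubule were not called, with -0.31 for Slc34a1 (adjusted p = 0.61) and -0.56 for Slc34a3 (adjusted p = 0.175). Cyp27b1, the enzyme that makes active vitamin D, had 0.277, 0.243 and 0.144 FPKM in WT-VAD against 4.84, 1.56 and 2.31 FPKM in WT, and 1.10, 3.13, 1.61 and 0.151 FPKM in TRACK-VAD against 8.97, 0.672, 0.971 and 1.08 FPKM in TRACK. Wild-type libraries were separate by diet and TRACK libraries were not, and the averaged difference of -0.97 ± 0.39 (SE) was not called (adjusted p = 0.329). Interactions were 0.57 for Calb1 (adjusted p = 0.67) and 0.77 for S100g (adjusted p = 0.581).

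The window before S100g is shown for the hexamer AGGTCA, the core letters bound by many nuclear receptors, which occurs there once in each orientation (capitals; TGACCT is the reverse complement). On either strand the hexamer was in 8 of 29 windows of the calcium list (27.6%), in 21 of 110 windows of called genes (19.1%) and in 14% of all 32851 windows. The direct repeat of this hexamer with 5 bases between, known as DR5 and bound by retinoic acid receptors, was in 0 of the 110 windows of called genes and in 0.00913% of all. The sequence runs 5′ to 3′ on the minus strand of chrX:162964600-162964849 (RefSeq, GRCm38.p6).
S100g: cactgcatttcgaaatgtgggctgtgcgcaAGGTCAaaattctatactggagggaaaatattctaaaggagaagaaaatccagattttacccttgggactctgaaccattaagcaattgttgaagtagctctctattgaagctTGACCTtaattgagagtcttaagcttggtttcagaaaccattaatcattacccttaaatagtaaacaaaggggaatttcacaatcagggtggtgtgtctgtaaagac

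The list for growth hormone and its transcription factor STAT5 held 2 calls among 18 tested genes (11.1%, beside 0.914% of all genes). These were an inducible inhibitor that rose and a repressor that fell (list median -0.08). Besides downstream genes the list holds Stat5a, Stat5b, Prlr and Igf1r. Cish (ENSMUSG00000032578, chromosome 9, 107296026 to 107302784), a STAT5-induced inhibitor of cytokine receptors, had 31.7, 31.8 and 20.5 FPKM in WT-VAD against 20.0, 12.1 and 15.8 FPKM in WT, and 29.6, 20.8, 22.8 and 22.3 FPKM in TRACK-VAD against 10.7, 9.15, 9.65 and 14.3 FPKM in TRACK. Deficient-diet libraries were the higher ones without overlap in both genotypes (0.92 ± 0.14 SE, adjusted p = 0.0086, or 189% of the chow level). Bcl6 (ENSMUSG00000022508, chromosome 16, 23965052 to 23988852), a transcriptional repressor that STAT5 is known to switch off in mouse liver, had 1.71, 1.36 and 3.67 FPKM in WT-VAD against 2.02, 5.40 and 2.84 FPKM in WT, and 2.52, 4.16, 2.82 and 2.48 FPKM in TRACK-VAD against 13.5, 13.3, 14.4 and 16.2 FPKM in TRACK. The wild-type groups overlapped; the TRACK chow libraries stood above all others, and TRACK-VAD libraries were in the wild-type range. The averaged difference of -1.20 ± 0.18 (SE; adjusted p = 0.0086) was thus -1.96 in TRACK and -0.44 in wild type, with an interaction of -1.52 (adjusted p = 0.323). Socs2, another STAT5-induced inhibitor, had 11.97, 13.1 and 19.5 FPKM in WT-VAD against 6.67, 5.49 and 4.15 FPKM in WT, and 15.2, 13.2, 7.52 and 6.76 FPKM in TRACK-VAD against 8.27, 7.45, 10.5 and 6.40 FPKM in TRACK; the average (0.79, adjusted p = 0.0633) missed the threshold. Stat5a was at -0.16 (adjusted p = 0.34). The calls of Cish and Bcl6 held without any single library (up to 0.0377 and 0.0338), and in TRACK within lane 5 the differences were 1.09 (adjusted p = 0.0386) and -1.90 (adjusted p = 0.00761).

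The window before a RefSeq start of Bcl6 (chr16:23981284-23981533, minus strand, GRCm38.p6) is shown because it held 3 matches to TTCNNNGAA, the letters that STAT factors recognise, in capitals. This motif was in 6 of 29 windows of the growth hormone list (20.7%), in 7 of 110 windows of called genes (6.36%) and in 7.02% of all windows.
Bcl6: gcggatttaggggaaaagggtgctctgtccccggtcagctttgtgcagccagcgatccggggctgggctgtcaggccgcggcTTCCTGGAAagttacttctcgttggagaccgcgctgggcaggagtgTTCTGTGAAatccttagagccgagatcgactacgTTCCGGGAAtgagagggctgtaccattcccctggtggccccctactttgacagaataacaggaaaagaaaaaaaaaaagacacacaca

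**Figure D4:**
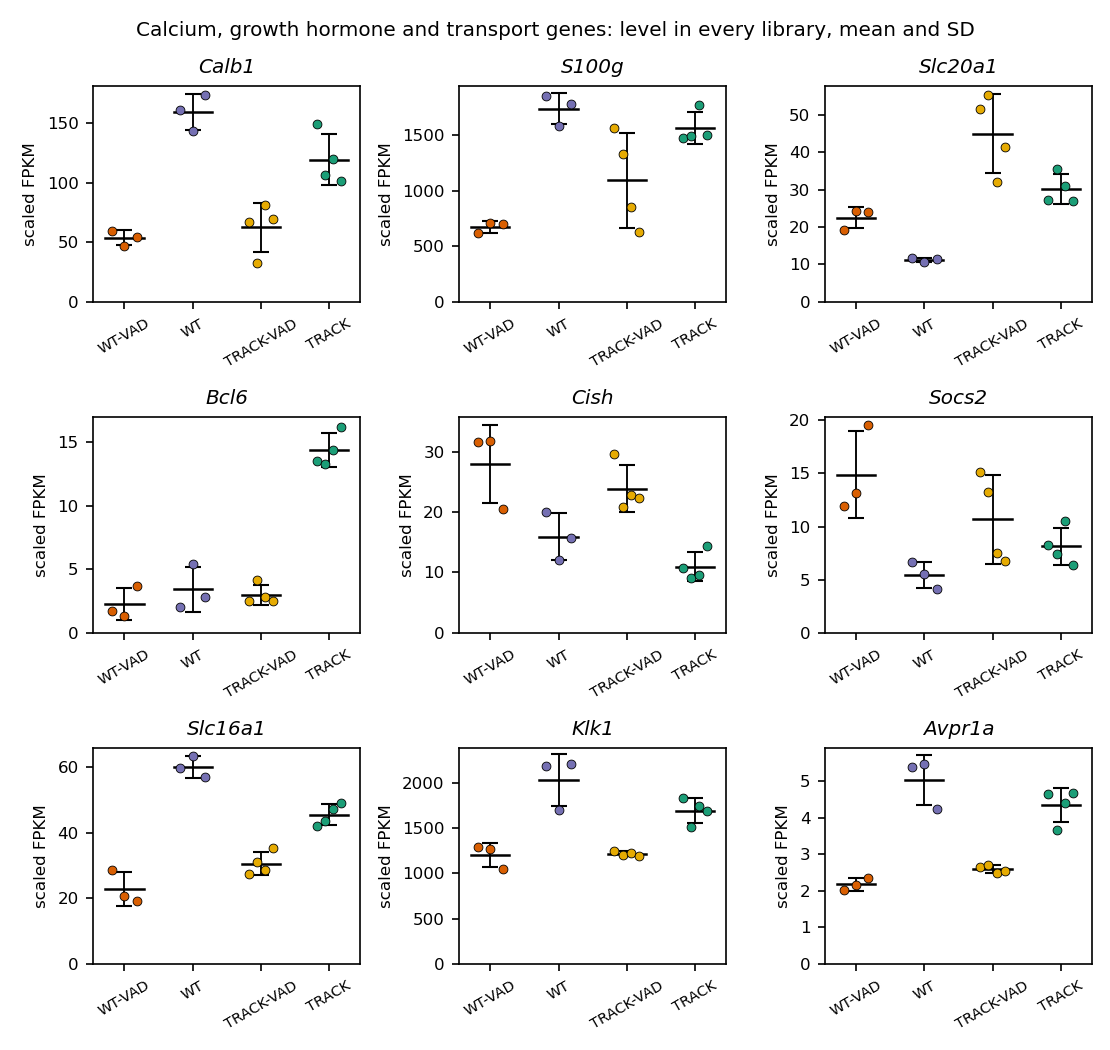
Scaled FPKM of 9 genes in every library (points), with the group mean and SD (lines), deficient diet left of chow within each genotype. Calb1, Slc16a1, Klk1 and Avpr1a are lower and Cish is higher on the deficient diet without overlap in either genotype, whereas the diets are separate for Bcl6 in TRACK and overlap in wild type.

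Slc16a1, Avpr1a and Klk1 were among the 32 called genes that fell without overlap in both genotypes. Slc16a1 (ENSMUSG00000032902, chromosome 3, 104638668 to 104658462), a transporter of lactate, pyruvate and ketone bodies, had 28.6, 20.6 and 19.0 FPKM in WT-VAD against 59.8, 63.5 and 57.0 FPKM in WT, and 27.3, 30.9, 28.7 and 35.2 FPKM in TRACK-VAD against 42.1, 43.6, 47.3 and 48.9 FPKM in TRACK. The averaged difference was -0.97 ± 0.09 (SE; adjusted p = 0.000246), and with lane number as a covariate -1.15 (adjusted p = 0.0277). Avpr1a (ENSMUSG00000020123, chromosome 10, 122448499 to 122453453), a vasopressin receptor, had 2.01, 2.15 and 2.36 FPKM in WT-VAD against 5.39, 5.46 and 4.23 FPKM in WT, and 2.64, 2.71, 2.48 and 2.54 FPKM in TRACK-VAD against 4.63, 3.66, 4.41 and 4.67 FPKM in TRACK. Its libraries varied little within a diet, and the averaged difference was -0.74 ± 0.07 (SE; adjusted p = 0.000246). Klk1 (ENSMUSG00000063903, chromosome 7, 44225360 to 44229618), the tissue kallikrein that connecting tubule cells secrete into urine, had 1293, 1268 and 1046 FPKM in WT-VAD against 2181.6, 1698 and 2210.4 FPKM in WT, and 1244, 1196, 1227 and 1194 FPKM in TRACK-VAD against 1829, 1507, 1740.0 and 1681 FPKM in TRACK. It was one of the most abundant called genes and fell to 65.5% of the chow level (-0.61 ± 0.08 SE, adjusted p = 0.00485); reads shared with other kallikrein genes could not be separated here.

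Ndrg1, known as a stress- and hypoxia-responsive gene, had 1823, 1535 and 1462 FPKM in WT-VAD against 3044, 3114 and 3373 FPKM in WT, and 1393, 1271, 1779 and 1758 FPKM in TRACK-VAD against 2052, 1874, 1932 and 2234 FPKM in TRACK (-0.69 ± 0.09 SE, adjusted p = 0.00485). Clpx, the unfolding subunit of a protease of the mitochondrial matrix, averaged 88.7 ± 15.9 FPKM in WT-VAD and 186 ± 26.1 FPKM in WT (SD, n = 3 each), and 84.2 ± 11.1 FPKM in TRACK-VAD and 115 ± 16.1 FPKM in TRACK (SD, n = 4 each; difference -0.76, adjusted p = 0.00589). Deficient-diet and chow libraries of both genes were separate within each genotype. Ecm1, a secreted matrix protein (-0.74, adjusted p = 0.01), and Tmprss9, a membrane serine protease (-0.72, adjusted p = 0.0321), also fell. So did Fpgs, which adds glutamates to folate so that cells retain it (-0.56, adjusted p = 0.0086), with nearly equal differences of -0.57 in TRACK and -0.54 in wild type. Ndrg1 and Slc16a1 differed less in TRACK, at -0.40 and -0.56, than in wild type, at -0.99 and -1.38. Neither interaction was called (adjusted p = 0.446 and 0.3, unadjusted p = 0.00639 and 0.000428 in limma). Calls of Slc16a1, Avpr1a, Klk1, Ndrg1, Clpx, Ecm1 and Fpgs held without any single library, with adjusted p up to 0.0398; Tmprss9 lost its call without any one of 10 libraries, that is all but WT 1 and TRACK-VAD 2 to 4 (0.053 to 0.0995).

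Among abundant called genes, Defb1, a beta-defensin of urinary epithelium, had 206, 257 and 191 FPKM in WT-VAD against 303, 318 and 343 FPKM in WT, and 256, 237, 277 and 212 FPKM in TRACK-VAD against 339, 286, 312 and 268 FPKM in TRACK (-0.43, adjusted p = 0.0322). Coq8a, a kinase-like protein of coenzyme Q synthesis, had 177, 164 and 154 FPKM in WT-VAD against 304, 243 and 275 FPKM in WT, and 118, 98.8, 168 and 149.7 FPKM in TRACK-VAD against 157, 166, 179 and 215 FPKM in TRACK (-0.58, adjusted p = 0.0322). Both overlapped by diet in TRACK. These calls were lost without any one of 9 libraries for Defb1 (0.053 to 0.101; all but WT-VAD 2, TRACK 4 and TRACK-VAD 2 to 4) and 9 for Coq8a (0.053 to 0.0968; all but WT 2, TRACK 1 and TRACK-VAD 2 to 4).

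Of the genes that rose without overlap in both genotypes, Cish and the clock genes Per3 and Nr1d2 were given above. 1700016C15Rik, to which no role is given here, had 38.9, 55.4 and 46.2 FPKM in WT-VAD against 26.03, 26.4 and 26.6 FPKM in WT, and 39.2, 42.4, 35.7 and 31.8 FPKM in TRACK-VAD against 26.1, 29.8, 28.03 and 24.7 FPKM in TRACK (0.61 ± 0.08 SE, adjusted p = 0.0051). Mtmr7, of the myotubularin family of lipid phosphatases, had 1.45, 1.14 and 1.38 FPKM in WT-VAD against 0.596, 0.519 and 0.545 FPKM in WT, and 0.678, 1.002, 0.740 and 0.832 FPKM in TRACK-VAD against 0.556, 0.447, 0.490 and 0.442 FPKM in TRACK (0.43 ± 0.07 SE, adjusted p = 0.0086). Both stayed called without any single library (up to 0.0207 and 0.0343). Mtmr7 reached 1 FPKM in the 3 WT-VAD libraries and TRACK-VAD 2 and in no chow library, so it passed the filter only through the diet on which it was high. With no filter its adjusted p was 0.0017, which is no independent check, as for Aox1. Of the 112 called genes 4 (3.57%) were at 1 FPKM or more in libraries of 1 diet only, beside 52 of all genes tested (0.424%). Of these 4 genes 3 were also called with no filter, to which the same limit applies. Ihh, a hedgehog ligand, had 10.3, 9.69 and 9.16 FPKM in WT-VAD against 6.71, 6.96 and 6.24 FPKM in WT, and 14.7, 14.98, 14.1 and 16.3 FPKM in TRACK-VAD against 11.3, 13.1, 12.4 and 14.04 FPKM in TRACK. The diets were separate for Ihh in both genotypes and its call also held without any single library (0.36 ± 0.06 SE, adjusted p = 0.0137; up to 0.0466). Slc50a1, a sugar transporter (0.31, adjusted p = 0.0278), Vgll4, a cofactor of TEAD transcription factors (0.32, adjusted p = 0.0334), Hnrnpa3, an RNA-binding protein (0.27, adjusted p = 0.0392), and Mtfmt, which formylates the mitochondrial initiator tRNA (0.26, adjusted p = 0.0456), also rose. Their differences in TRACK minus those in wild type were 0.06, -0.03, -0.05 and -0.02 (adjusted p = 0.903, 0.965, 0.92 and 0.973). These 4 were not called without scaling between libraries (adjusted p = 0.0626 for Slc50a1, 0.079 for Vgll4, 0.0992 for Hnrnpa3 and 0.0884 for Mtfmt) and each lost its call without any one of 9 to 12 libraries (adjusted p up to 0.0829, 0.0965, 0.122 and 0.115).

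Ugt2b37, another UDP-glucuronosyltransferase, went the opposite way to Ugt2b34. It had 94.98, 103 and 109 FPKM in WT-VAD against 30.5, 31.2 and 35.8 FPKM in WT, and 37.2, 27.2, 80.8 and 51.0 FPKM in TRACK-VAD against 23.4, 31.8, 35.5 and 28.7 FPKM in TRACK. The wild-type groups were far apart and the TRACK groups overlapped (1.11 ± 0.19 SE, adjusted p = 0.0138; 0.0527 without WT 1). Of 34 tested conjugation enzymes, Ugt2b34 and Ugt2b37 were the 2 called (5.88%, beside 0.914% of all genes; median -0.03).

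Lists of metabolism and stress held at most 3 calls each, to be read beside 0.318% of all genes called higher and 0.596% called lower. Of 26 tested genes of cholesterol and fatty acid synthesis, 2 were higher and 1 lower (median 0.04): Sqle, an oxygenase of cholesterol synthesis (0.42, adjusted p = 0.0318), and Stard4, a sterol carrier (0.25, adjusted p = 0.0405), rose, and Acly, which makes acetyl-CoA for lipid synthesis (-0.38, adjusted p = 0.0341), fell. Acly had 43.4, 43.0 and 47.0 FPKM in WT-VAD against 61.3, 59.4 and 57.0 FPKM in WT, and 67.0, 65.1, 66.7 and 82.9 FPKM in TRACK-VAD against 73.6, 92.9, 95.8 and 96.6 FPKM in TRACK. Of 19 endoplasmic reticulum chaperone genes 2 rose (median 0.06), namely Xbp1, a transcription factor of the unfolded protein response (0.75, adjusted p = 0.0285), and Manf, a secreted stress protein (0.37, adjusted p = 0.0456). Xbp1 had 81.6, 142 and 101 FPKM in WT-VAD against 61.9, 52.6 and 58.6 FPKM in WT, and 135, 147, 84.8 and 105 FPKM in TRACK-VAD against 66.1, 88.5, 78.2 and 64.9 FPKM in TRACK, so that TRACK-VAD 3 lay within the TRACK range. Of 26 genes of the integrated stress response, Gpt2, an alanine aminotransferase (0.43, adjusted p = 0.0475), rose and Sesn2, a stress-induced regulator of growth signalling (-0.50, adjusted p = 0.0408), fell; in TRACK their differences were 0.01 and -0.04, against 0.85 and -0.95 in wild type. Of 15 heat shock genes Hspb8 rose (0.78, adjusted p = 0.027), and of 16 complement and acute phase genes Saa2 (0.84, adjusted p = 0.0486), whose family members are near-identical. Saa2 reached 1 FPKM in the 3 WT-VAD libraries and TRACK-VAD 4 and in no chow library. It too passed the filter only through the diet on which it was high, and with no filter it was not called (adjusted p = 0.0836).

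Each of these calls was lost without single libraries, of which the fewest were for Hspb8 (WT 1 to 3 and TRACK 1 to 3, 0.0528 to 0.0775). The numbers of such libraries were 8 for Sqle (up to 0.0995), 9 for Xbp1 (0.0814), 10 for Acly (0.0965), 11 for Sesn2 (0.132) and Saa2 (0.147) and 12 for Stard4 (0.113), Manf (0.114) and Gpt2 (0.133). No gene was called among 20 of the TCA cycle (2 lower at an unadjusted p of 0.05), 35 respiratory chain subunits (0), 36 of fatty acid oxidation (3 higher, 2 lower), 24 one-carbon genes (1 higher, 4 lower) and 18 NRF2 targets (3 lower), where 5.54% of all genes were higher and 6.59% lower at that p. Of the 27 tested HIF targets in the list used here, Bhlhe40 was called higher and Ndrg1 lower. Car9 is not in that list and was among the 112 called genes, lower on the deficient diet. In that list 2 were higher and 7 lower at an unadjusted p of 0.05 (median -0.15; -0.29 in TRACK and -0.0018 in wild type).

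Lists of collecting duct cells had medians below 0, with 1 member called in each. All 17 intercalated cell genes, of the acid-base cells of the collecting duct, were tested. Only Atp6v0a4 was called lower (5.88%), 12 were lower at an unadjusted p of 0.05 beside 6.59% of all genes, and the median was -0.38 (-0.37 in TRACK and -0.42 in wild type). Atp6v0a4, a proton pump subunit, had 111, 112 and 115 FPKM in WT-VAD against 175, 151 and 154 FPKM in WT, and 82.0, 89.6, 118 and 101 FPKM in TRACK-VAD against 129.5, 104, 115 and 117 FPKM in TRACK (-0.38 ± 0.08 SE, adjusted p = 0.0408). Slc4a9, an anion exchanger (-0.42, adjusted p = 0.0606), Atp6v0d2 (-0.32, adjusted p = 0.0759) and the ammonia transporter Rhbg (-0.53, adjusted p = 0.0897) missed the threshold, as did Foxi1, the transcription factor that specifies these cells (-0.38, adjusted p = 0.136). The sum of 4 defining markers was 63.7 to 67.0 FPKM in WT-VAD against 84.5 to 97.2 FPKM in WT, and 55.7 to 82.1 FPKM in TRACK-VAD against 82.8 to 90.8 FPKM in TRACK, separate in both genotypes. Without TRACK-VAD 1 and 2 the list median was -0.28 and 6 of its genes were called lower.

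Other called segment genes were Scnn1b, a subunit of the epithelial sodium channel of principal cells (-0.35, adjusted p = 0.0322), and the podocyte genes Nphs1, which encodes nephrin (-0.48, adjusted p = 0.0322), and Cdkn1c, a cell cycle inhibitor (-0.37, adjusted p = 0.0343). Scnn1b had 18.6, 19.8 and 17.4 FPKM in WT-VAD against 23.9, 20.6 and 25.99 FPKM in WT, and 18.1, 15.2, 17.98 and 19.8 FPKM in TRACK-VAD against 22.6, 22.9, 24.4 and 23.2 FPKM in TRACK, with no overlap in either. Nphs1 had 4.96, 4.15 and 5.70 FPKM in WT-VAD against 7.03, 6.51 and 8.10 FPKM in WT, and 4.31, 4.28, 5.06 and 6.13 FPKM in TRACK-VAD against 7.17, 6.10, 8.23 and 7.70 FPKM in TRACK, where TRACK-VAD 4 just passed TRACK 2. In lists these were 1 of 15 principal cell genes (median -0.25) and 2 of 10 podocyte genes (median -0.14). Without TRACK-VAD 1 and 2 these medians were -0.14 and -0.16, and the principal cell median in TRACK went from -0.38 to -0.087. The sum of 4 principal cell markers overlapped by diet in both genotypes. Of 22 proximal tubule genes none was called (-0.12; 0.07 without TRACK-VAD 1 and 2, when 5 were called higher and 1 lower), and of 18 tubular injury genes Krt7 was called lower (-0.36, adjusted p = 0.0334) while the list median was above 0 (0.23; -0.0082 without TRACK-VAD 1 and 2). The injury median was 0.46 in TRACK and 0.0049 in wild type, and the TRACK value changed sign to -0.15 without TRACK-VAD 1 and 2. Each of the calls of Atp6v0a4, Scnn1b, Nphs1, Cdkn1c and Krt7 was lost without any one of 8 to 10 libraries, with adjusted p up to 0.122, 0.0995, 0.0995, 0.0995 and 0.0995. Sgk1, a kinase that aldosterone induces (-0.78, adjusted p = 0.0893), Kcne1, a potassium channel subunit (-0.40, adjusted p = 0.0608), Agt, the angiotensinogen gene (0.28, adjusted p = 0.0571), and Ren1, the renin gene (0.64, adjusted p = 0.134), were not called.

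The macrophage and interferon lists had medians above 0, with no member called. Of 19 macrophage and dendritic cell genes 11 were higher at an unadjusted p of 0.05, beside 5.54% of all genes, with a median of 0.38 (0.63 in TRACK, 0.15 in wild type; without TRACK-VAD 1 and 2 0.23, and 0.26 in TRACK). Fcer1g, a signalling chain of Fc receptors, had 8.50, 7.96 and 7.77 FPKM in WT-VAD against 5.50, 5.36 and 6.81 FPKM in WT, and 23.2, 49.0, 16.4 and 18.2 FPKM in TRACK-VAD against 14.3, 12.7, 12.4 and 13.6 FPKM in TRACK (0.62, adjusted p = 0.169; 0.0167 without TRACK-VAD 1 and 2). The sum of 5 macrophage markers was 30.7 to 46.0 FPKM in WT-VAD against 29.4 to 36.0 FPKM in WT, and 80.5 to 178 FPKM in TRACK-VAD against 64.8 to 81.3 FPKM in TRACK. All 22 tested interferon response genes were above 0, 12 of them at an unadjusted p of 0.05, beside 5.54% of all genes, with a median of 0.31 (0.51 in TRACK, 0.14 in wild type; without TRACK-VAD 1 and 2 0.17, and 0.18 in TRACK). Oasl2, an interferon-induced antiviral gene, had 2.92, 2.88 and 3.34 FPKM in WT-VAD against 1.98, 2.67 and 1.62 FPKM in WT, and 9.11, 11.5, 5.63 and 6.55 FPKM in TRACK-VAD against 4.13, 4.65, 5.47 and 3.99 FPKM in TRACK (0.55, adjusted p = 0.0805).

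Ifih1, a sensor of double-stranded RNA, and Nmi, a partner of STAT proteins, are members of none of these lists and were among the 13 called genes that rose without overlap in both genotypes. Ifih1 had 5.64, 4.77 and 5.40 FPKM in WT-VAD against 3.66, 4.26 and 3.38 FPKM in WT, and 5.82, 6.90, 6.97 and 7.90 FPKM in TRACK-VAD against 5.69, 5.55, 4.66 and 4.46 FPKM in TRACK (0.39 ± 0.08 SE, adjusted p = 0.0379). Nmi had 20.9, 23.7 and 19.6 FPKM in WT-VAD against 14.02, 17.7 and 16.8 FPKM in WT, and 21.7, 22.4, 19.4 and 20.6 FPKM in TRACK-VAD against 14.6, 16.4, 18.7 and 15.4 FPKM in TRACK (0.37 ± 0.07 SE, adjusted p = 0.0333). Both were separate by diet in each genotype, by narrow gaps. Each lost its call without any one of 9 libraries: for Ifih1 all but WT 2, TRACK 1 and TRACK-VAD 1, 2 and 4 (0.0505 to 0.114), for Nmi all but WT 2, TRACK 3 and TRACK-VAD 2 to 4 (0.0525 to 0.0921; 0.0515 without TRACK-VAD 1 and 2). Lymphocyte, endothelial and fibroblast lists had no call, with medians of 0.04, -0.04 and 0.01. The sum of 6 lymphocyte markers was 21.9 to 44.5 FPKM in WT-VAD against 12.6 to 20.4 FPKM in WT. In TRACK mice it overlapped, at 48.0 to 251 FPKM in TRACK-VAD against 161 to 378 FPKM in TRACK. Of these markers Jchain reached 373 FPKM and no other passed 3.80 FPKM. What part these cell types have in the retinoid, clock and calcium results was not tested.

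**Figure D5:**
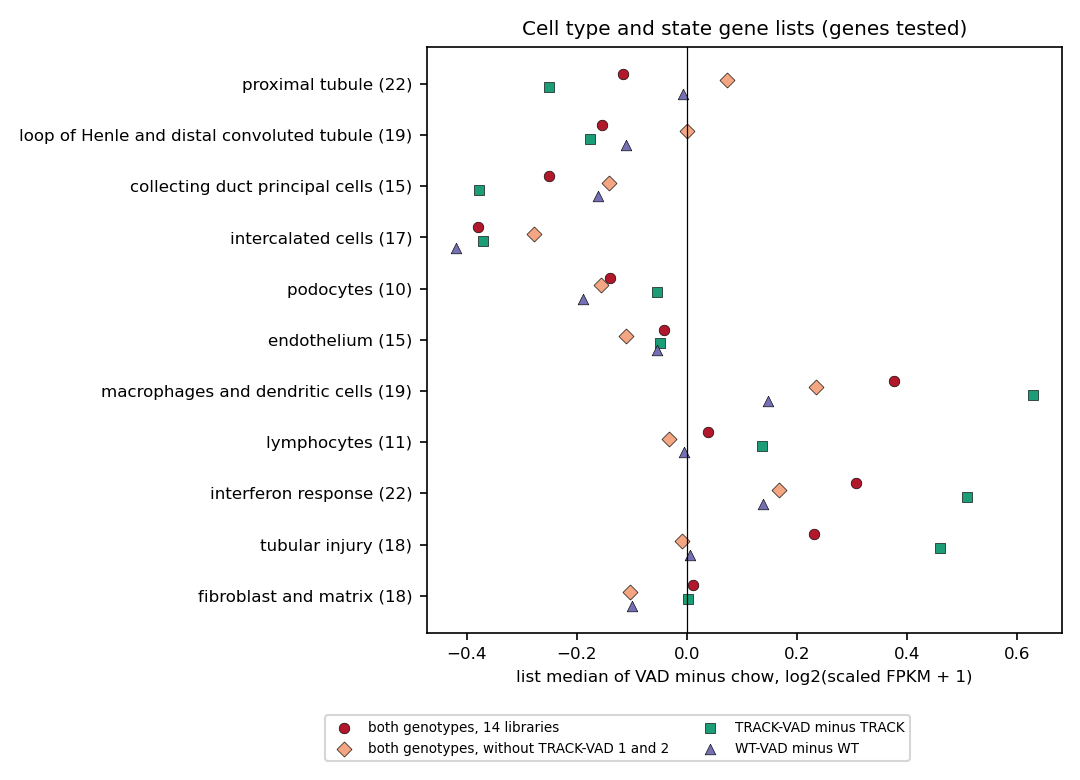
Median over each cell type or state list (number of genes tested in brackets) of the VAD minus chow difference on log2(scaled FPKM + 1), for the averaged effect, for the averaged effect without TRACK-VAD 1 and 2, for TRACK and for WT. Intercalated cell, principal cell, podocyte and endothelial genes have medians under 0 in all 4 settings. The macrophage, interferon and injury medians of TRACK exceed those of WT. Without TRACK-VAD 1 and 2, which is not drawn for TRACK alone, they were 0.26, 0.18 and -0.15, the last of them below WT (0.0049).

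Other settings ended some of these calls. Without scaling between libraries, Nmi, Vgll4, Slc50a1, Hnrnpa3, Mtfmt, Defb1, Cdkn1c, Manf, Acly, Stard4, Sesn2 and Saa2 were not called, with adjusted p of 0.0521 to 0.0992. Without TRACK-VAD 1 and 2 this was so for Per3, Nmi, Hnrnpa3, Mtfmt, Manf and Acly (0.0504 to 0.0679). In the additive model it was so for Aox1, Arntl, Ciart, Per3, Bhlhe40, Defb1, Atp6v0a4, Cdkn1c, Manf, Sqle, Stard4, Gpt2, Sesn2, Ugt2b37, Hspb8, Saa2 and Krt7 (0.0568 to 0.303). With no filter on low values Ciart, Per3, Bhlhe40, Tmprss9, Ifih1, Hnrnpa3, Mtfmt, Defb1, Coq8a, Atp6v0a4, Scnn1b, Nphs1, Cdkn1c, Xbp1, Manf, Sqle, Acly, Gpt2, Sesn2, Hspb8, Saa2 and Krt7 missed the threshold (0.0507 to 0.0836). With lane number as a covariate every called gene named here but Cyp26b1 and Slc16a1 missed it, from 0.068 for Avpr1a, Ndrg1 and 1700016C15Rik, among others, to 0.521 for Saa2.

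The authors' deposited tables hold their own log2 fold changes of WT-VAD over WT and of TRACK-VAD over TRACK, and their own adjusted p. For the 112 called genes the mean of both values in the authors' deposited tables had the same sign as the difference found here. Both rest on libraries of the same series, so the shared sign is not independent support. At an adjusted p of 0.05 in the authors' deposited tables, 163 of the tested genes passed in TRACK, 321 in wild type and 30 in both. Of these 30, 28 had the same sign and 28 were called here, which are not all the same genes. The 2 with opposite signs were Aox1 (-1.97 in TRACK and 0.90 in wild type) and Rbp4 (-1.56 in TRACK and 0.95 in wild type). Aox1 was called here, whereas Rbp4 and Bcl7a (-0.27 in TRACK and -0.26 in wild type) were not. For Cyp26b1 the authors' deposited tables give -2.36 in TRACK (adjusted p = 1.03e-10) and -1.56 in wild type (adjusted p = 0.000293). For Npas2 the values in the authors' deposited tables are -0.94 in TRACK and -2.13 in wild type, larger than the -0.69 and -1.37 found on the log2(scaled FPKM + 1) scale, where 1 FPKM is added.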

How the data were processed

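Kidney cortex RNA was sequenced in 14 libraries as 51-base single-end reads, per the labels' protocols. FPKM values for 22007 gene IDs were deposited by the authors; the program behind them is not given in the sources used here, and 6 further columns match no labelled sample and were not used. The authors' deposited tables give, per the file headers, a mean signal over libraries (counts divided by size factors), a log2 fold change with its SE, and a p-value with its adjusted value; the submitters' processing notes name DESeq 1.32 and mm9. Gene loci in the FPKM table are those of GRCm38: 12235 of 12251 tested IDs are in its annotation, 12232 overlap that gene and 9841 have the same start and end. Whether counting used strand is not given in the sources used here, so overlapping genes may share reads.

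Here FPKM were divided by trimmed mean scale factors (0.897 to 1.18). Genes with at least 1 FPKM in 3 or more libraries were kept (12268), and 17 listed at 0 in a library while others were high were left out. Group means of log2(scaled FPKM + 1) were fitted with limma 3.58.1 (R 4.3.3, variance trend, 10 residual degrees of freedom), and p-values were adjusted over 12251 genes by Benjamini and Hochberg's method; every adjusted p in the text is limma's unless the authors' deposited tables are named. A count test had been planned for counts and was not used, since FPKM are not counts. The fit was tested on simulated data. Replicate numbers were not treated as pairs. Members, gene lists and tests were chosen with earlier results of these data known. Named genes are the 12 called genes per direction with the largest difference and no overlap in either genotype, called members of the lists, the 4 called genes with the largest interaction and the 6 with the highest level; some genes that meet these rules are not reported here. Other list members are examples picked after their values were seen. Promoter sequences are RefSeq's, and 86 of the 112 called genes had a window. Figures were drawn with matplotlib 3.10.9.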

Additional observations from a re-analysis of the deposited data

Results flagged for a closer look

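For the genes in the text, values of the groups of 4 libraries were searched for a library far from the other 3, by a gap to the nearest of them above 0.829 of the group's range. This marked 13 of 174 gene and group values, and chance alone marks about 1 in 20. In TRACK-VAD, single libraries stood out at 1.53 FPKM of Cyp26b1 (others 0.428 to 0.599 FPKM), 33.2 FPKM of Nr1d1 (others 40.8 to 41.5 FPKM), 82.9 FPKM of Acly (others 65.1 to 67.0 FPKM) and 26.4 FPKM of Sgk1 (others 51.5 to 52.8 FPKM). The macrophage genes Cx3cr1, at 6.40 FPKM (others 3.10 to 3.59 FPKM), and Ctss, at 87.1 FPKM (others 33.6 to 35.8 FPKM), did so too. In TRACK, single libraries stood out at 3.98 FPKM of Npas2 (others 2.31 to 2.52 FPKM), 8.86 FPKM of Clock (others 10.2 to 10.4 FPKM), 1778 FPKM of S100g (others 1478 to 1506 FPKM) and 8.97 FPKM of Cyp27b1 (others 0.672 to 1.08 FPKM). The same held for 2.33 FPKM of Tmprss9 (others 1.69 to 1.73 FPKM), 73.6 FPKM of Acly (others 92.9 to 96.6 FPKM) and 33.2 FPKM of Krt7 (others 37.3 to 38.0 FPKM).

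Aox1 differed between the genotypes under the same diet contrast, with a difference in TRACK minus that in wild type of -0.98 on the log2(scaled FPKM + 1) scale (limma, adjusted p = 0.0173). It reached 1 FPKM in the 4 TRACK libraries and in no other, so it entered the tests only through the group where it was high, and the call was lost without any one of 8 libraries.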

How the results depend on the processing

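The averaged count of 112 was 67 with no filter on low values, 61 in an additive model, 3 with lane as a covariate, 237 with limma's array weights and 270 without TRACK-VAD 1 and 2, which was chosen after seeing the data; leaving out 1 library gave 40 (without WT 1) to 167 (without TRACK-VAD 2). In wild type the 63 calls became 40, 0 (1060 at an unadjusted p of 0.05), 170 and 230 with no filter, lane as a covariate, array weights and without TRACK-VAD 1 and 2, and 5 (without WT 1) to 113 (without TRACK-VAD 2) without single libraries. In TRACK the 19 calls became 10 with a pseudocount of 0.1, 56 with lane as a covariate or within lane 5, 32 with array weights, and 8 (without TRACK 3) to 56 (without TRACK-VAD 4) without single libraries. The single interaction became 4 without scaling, 3 with array weights, 3 without TRACK-VAD 1 and 2, 0 with a pseudocount of 0.1 (990 at an unadjusted p of 0.05), a filter at 5 FPKM (742) or lane as a covariate (511), and 0 to 7 without single libraries. The cause of these shifts was not tested.

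With the replicate block the averaged count was 105 (81 of the 112 among them), and counts were 45 in wild type, 7 in TRACK and 0 for the interaction (1141 at an unadjusted p of 0.05). Deviations of same-numbered libraries correlated at -0.142 to 0.382, over 0.1 in 2 of 7 pairs, and those of other pairings at -0.307 to 0.229. The highest value was that of TRACK-VAD 1 with TRACK 1. Whether same-numbered libraries share more than a number was not tested.

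Of single gene values under the alternatives, 374 were no longer called, 43 became called and 3 changed sign. Another 1993 counted as the same, that is with direction and side of the threshold kept, uncalled genes that stayed uncalled among them. Values in the authors' deposited tables were compared without a threshold. They counted as the same within the gene's SD within groups, and 6 lay further off. The sign changes were Stra6 (-0.071 without TRACK-VAD 1 and 2), Per2 (-0.15 with lane as a covariate) and Ttr (-0.13 with lane as a covariate); none of these was called. Depth is unknown, so precision rests on the number of libraries.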
